A study of Homo sapiens with 15 samples.

Results

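The cytoplasmic ribosomal protein genes encode the proteins of the large (RPL) and small (RPS) ribosomal subunits. They were taken by symbol: protein-coding genes named RPL or RPS with a number and an optional A, X or L, together with RPSA, RPLP0, RPLP1 and RPLP2. Of the 14432 genes with a row in the deposited tables, 44 met this rule, 27 of the large and 17 of the small subunit. They are 52.4% of the 84 such symbols in RefSeq. The others, among them RPL3, RPL4, RPL5, RPL7A, RPL10, RPL13A, RPL23, RPLP2 and RPSA, were not analysed here. The 44 include 6 paralogues of a canonical gene: RPL3L, RPL7L1, RPL22L1, RPL26L1, RPL39L and RPS27L.

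Ribosomal protein mRNAs are among the most abundant of a growing cell, and their genes are short, housekeeping genes transcribed by RNA polymerase II (RNAPII). Most of the mRNAs begin with a C followed by a run of pyrimidines, the 5′ terminal oligopyrimidine (TOP) motif, through which growth signalling controls their translation. Many of the genes carry small nucleolar RNAs (snoRNAs), guides of ribosomal RNA modification, inside their introns, and most have processed pseudogenes elsewhere in the genome.

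The study measured RNA crosslinked to PHC1, a subunit of Polycomb repressive complex 1 (PRC1), with nuclear RNA as the reference and RNAPII as the control. All samples came from HEK293T T-Rex, an established human embryonic kidney line. The 2 PHC1 PAR-CLIP libraries came from cells with a PHC1 transgene, kept in hygromycin and given 100 uM 4-thiouridine (4SU) overnight, and complexes were taken on streptavidin beads. RNAPII PAR-CLIP came from cells with no transgene, through an antibody to the RNAPII C-terminal domain, with 1 library after 100 uM 4SU and 1 after 100 uM 6-thioguanosine (6SG). The 2 total nuclear RNA libraries, depleted of ribosomal RNA, came from cells with no transgene and no nucleoside. ChIP-seq at start sites had 2 libraries each from cells with a PHC1 or a PHC1-dFCS transgene, on streptavidin beads, while RNAPII, H3K4me3, H3K27me3, EZH2 and input had 1 library apiece from cells with no transgene. The labels give no promoter, level or clone for the transgenes and do not say whether replicates were separate cultures, so p-values measure only how far these libraries spread, and that spread may be technical. Assay, transgene, nucleoside and capture differ together between PHC1 PAR-CLIP and nuclear RNA, and their parts cannot be told apart.

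The RNA libraries held 47.2 and 49.6 M (mega) counted reads. Cluster coverage inside gene regions came to 449.2 and 393.5 Mb for PHC1, 605.4 for RNAPII 4SU and 55.5 for RNAPII 6SG, so the 6SG library was the shallowest. The single ChIP libraries held 32.5 to 43.1 M reads, as inferred here from the spacing of the deposited start-site values. From a list of 7 genes linked to this line 6 had a row. In nuclear RNA they summed to 237 and 238 CPM (scaled counts on a per-million base), against 0.0202 to 2.29 for lists of fibroblast, blood, keratinocyte and hepatocyte genes. NEFL (141 and 142), INA (51.6 and 49.3) and GATA2 (32.6 and 34.0) gave most of that sum. PAX2 had 7.42 and 8.36 and LHX1 4.47 and 4.09. NEFM had only 0.381 and 0.121, under the fibroblast gene COL1A1 (1.53 and 1.55). Whether RNA reads were counted over exons or whole regions is not given in the sources used here. Nor is it given how reads shared with processed pseudogenes were placed, in nuclear RNA or in PAR-CLIP. The RNA levels, PAR-CLIP values and folds of the ribosomal protein genes are uncertain to that extent.

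The start-site letters are shown first because they carry the best-known shared feature of these genes. RefSeq promoter entries (GRCh38.p14) were found for 38 of the 44 genes. An unbroken run of at least 5 C or T letters on the gene's strand held an annotated start site in 27 of the 38 (71.1%). The same was true of 13.8% of 471 other short, strongly expressed genes and of 10.8% of 15843 protein-coding genes. Of the canonical genes, 26 of 34 had such a run. Each line below gives 30 bases, 5′ to 3′, of which the last 10 begin at the start site, and capitals mark the run that holds it, as far as it lies within the window. The first group has the run:
RPL29, chr3:51995886-51995915, minus strand: tgctgcaccgcagCCCCTTTCTCTTCCggt
RPL37A, chr2:216498824-216498853, plus strand: cctgcgcaccgcgTCTCTTCCTTTCTgggc
RPS6, chr9:19380227-19380256, minus strand: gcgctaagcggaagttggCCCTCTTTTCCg
RPLP0, chr12:120201102-120201131, minus strand: ggcacgcgcgggcgcgaggCCCTTCTCTCg
RPLP1, chr15:69452798-69452827, plus strand: gctgcgtataggcgcgagagCCCCTTTCCT
RPS16, chr19:39435940-39435969, minus strand: ccagggtggcccctagCTTTCCTTTTCCgg
RPS24, chr10:78033843-78033872, plus strand: ttggccggcgaatcgtggTTCTCTTTTCCT
RPS13, chr11:17077658-17077687, minus strand: ggcgtttccactctcgCTCTCCTTTCgttg
RPL22, chr1:6199586-6199615, minus strand: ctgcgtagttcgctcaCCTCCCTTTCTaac
RPL22L1, chr3:170870186-170870215, minus strand: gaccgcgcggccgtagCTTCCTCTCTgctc

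The second group has no run across the annotated start site. In RPS4X, RPS26 and RPL10A a stretch of 5, 8 and 8 letters C or T begins 2 bases after it.
RPS4X, chrX:72277239-72277268, minus strand: cgcgcgcagtctccagccccaatttctacg
RPS26, chr12:56041898-56041927, plus strand: gctgggagacacataacctcgattttcttc
RPL10A, chr6:35468381-35468410, plus strand: gcgcatgcgcaagacatgctagtctctttt
RPL27, chr17:42998399-42998428, plus strand: cctcaccggggtgaaaggttagcggaagtg
RPS27L, chr15:63157468-63157497, minus strand: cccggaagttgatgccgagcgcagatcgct
RPL7L1, chr6:42879596-42879625, plus strand: cgcgccggaagtgcggcgccgtagctagga

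RPL22L1 and its canonical partner RPL22 have runs of 10 and 11 letters, while RPS27L and RPL7L1 have none. Over the 300 bases of each entry (250 before and 50 from the start), searched on both strands, the ETS-type word CCGGAAG occurred in 31.6% of the 38 genes, 28.7% of the comparison genes and 16.5% of all protein-coding genes. The word TATAAA occurred in 5.26%, 8.49% and 12.4%, the YY1-type word AAGATGG in 7.89%, 13.0% and 7.9%, and the GC box GGGCGG in 52.6%, 74.1% and 64.3%. The words were counted separately, and CCGGAAG and AAGATGG can share the letters AAG. Genes with the run had a median of 90.8 RNA CPM per kb and those without it 84.9.

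Nuclear RNA was dense over the ribosomal protein genes. Their median was 284 CPM, against 83.8 in the comparison genes and 15.0 in all genes. The comparison genes were 566 other protein-coding genes with a region of at most 10 kb and at least 50 CPM. Per kb of gene region the medians were 76.0, 16.8 and 0.501. Of the 44, 40 lay in the top 5 percent of the table per kb, and together they took 1.95% and 1.91% of all counted reads. The regions ran from 1.24 kb (RPL41) to 23.1 kb (RPS24), with a median of 4.76 kb against 6.12 kb in the comparison genes and 23.8 kb in the whole table.

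By level per kb, RPL8 led with 327 CPM per kb, ahead of RPL36 with 297 and RPS4X, the X-linked small-subunit gene, with 284. At the bottom stood paralogues. RPL3L, the form of RPL3 found in heart and skeletal muscle, had 4 and 13 reads, or 0.0749 and 0.231 CPM. RPL39L, the testis-enriched form of RPL39, had 17.0 and 17.3 CPM over 18.5 kb, and RPL26L1 had 35.0 and 33.8 over 10.3 kb. RPL22L1 had 31.4 and 32.4 CPM against 297 and 301 in RPL22, and 5.93 against 20.5 per kb. RPS27L, a p53-responsive gene, had 80.9 and 77.6 CPM against 69.0 and 61.4 in RPS27, but 18.9 against 46.8 CPM per kb.

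The snoRNA hosts were mostly missing from the deposited tables. RefSeq places a snoRNA gene inside 29 ribosomal protein genes, of which 3 (10.3%) had a row, against 41 of the 55 others (74.5%). Among all protein-coding genes the shares were 52.1% of 526 with a snoRNA inside and 64.9% of 19530 without. No region of the tables overlaps another. The 3 hosts were RPS13 with SNORD14A and SNORD14B, RPL32 with SNORA7A, and RPL28 with SNORD157. RPS13 had 170 and 172 RNA CPM, RPL32 576 and 552, and RPL28 74.4 and 107. In PHC1 PAR-CLIP RPS13 had 32.2 and 20.7 CPM, RPL32 131 and 96.7, and RPL28 47.7 and 27.1. All 3 were below RNA, with log2 folds of -2.68 ± 0.23, -2.32 ± 0.16 and -1.29 ± 0.35 (SE) and adjusted p of 0.000876, 0.000512 and 0.0271 in limma. Their median of -2.32 lay beside -2.62 in the 40 other genes tested, a difference that was not tested.

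The first comparison asks which RNAs PHC1 crosslinked to more or less than their nuclear level would give. PAR-CLIP reads carry the crosslink as a base conversion and gather in clusters. A gene's PHC1 value is the summed read coverage of its clusters, scaled to the same base as the RNA counts and also given as CPM, so a fold below 0 means less than in nuclear RNA relative to the other genes, not absence of binding. Clusters were found in 43 of the 44 genes in both PHC1 libraries, 724 and 762 in all. RPL3L was listed at 0 and was not tested. The clusters covered 41.3 and 35.2 kb of these genes at a mean depth of 37.9 and 35.1, against 28.7 and 25.4 in all genes of the table.

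Ribosomal protein genes were mostly lower in PHC1 PAR-CLIP than in nuclear RNA. Of 43 tested, 40 were lower and 1 was higher (limma, Benjamini-Hochberg over 9362 genes, 0.05), where 47.1% of all genes tested were lower and 35.5% higher. Their median log2 fold was -2.56, against -2.00 in the comparison genes and -0.33 in all genes tested. In 41 of the 43 both PHC1 values lay under both RNA values, which held for 53.2% of all genes tested. Of the comparison genes, 484 of 566 (85.5%) were lower and 19 higher, so a low fold was common among them too. They were chosen by the same RNA libraries that the fold divides by. Of other protein-coding genes of at most 10 kb at any RNA level, 73.8% of those tested were lower and 12.2% higher. The median log2 fold of those short genes was -1.95. The large-subunit genes had a median of -2.41 over 26 tested and the small-subunit genes -2.68 over 17.

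RPL7, an RNA-binding protein of the large subunit, was the lowest. It had 185 and 177 CPM in RNA and 7.11 and 4.32 in PHC1 PAR-CLIP, a log2 fold of -4.79 ± 0.24 (adjusted p 0.00023) or 27.7 times lower. RPL29 had 265 and 274 in RNA and 14.8 and 11.0 in PHC1, a fold of -4.29 ± 0.16 (adjusted p 0.000146). In both genes every PHC1 value lay far under every RNA value.

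RPS27L, RPL37A and RPL8 followed. RPS27L had 80.9 and 77.6 CPM in RNA against 4.47 and 3.16 in PHC1, a log2 fold of -4.07. RPL37A had 642 and 601 against 43.8 and 34.4, a fold of -3.96. RPL8 had 867 and 866 against 68.8 and 46.7, a fold of -3.91. RPL37A and RPL8 thus stood above RPL7 and RPS27L in PHC1 PAR-CLIP itself while lying near the bottom by fold.

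At the other end, RPS15A and RPL22 went against the rest. RPS15A, a small-subunit protein, had 274 and 206 CPM in PHC1 PAR-CLIP and 185 and 180 in RNA. Its log2 fold of 0.38 ± 0.16 did not pass the test (adjusted p 0.0848), although the groups did not overlap. RPL22, a non-essential large-subunit protein known for its role in T-cell development, had 339 and 334 in PHC1 and 297 and 301 in RNA, a fold of 0.17 ± 0.05 (adjusted p 0.0398). That call was lost with the replicate number as a block (limma adjusted p 0.144), where RPS15A passed instead (0.0297), and without either RNA library (0.423 and 0.375). With library totals alone the fold of RPL22 was -0.19.

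RPL34 had 137 and 165 CPM in PHC1 and 173 in both RNA libraries, and its fold of -0.20 did not pass (adjusted p 0.158). RPL7L1, a paralogue of RPL7 that acts in assembly of the large subunit, had 157 and 156 against 208 and 201, a fold of -0.38 (adjusted p 0.00467). RPL26L1 had 21.0 and 22.6 against 35.0 and 33.8, a fold of -0.64 (adjusted p 0.00786). Without either RNA library RPL7L1 and RPL26L1 no longer passed, with adjusted p from 0.0715 to 0.168.

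**Figure D1:**
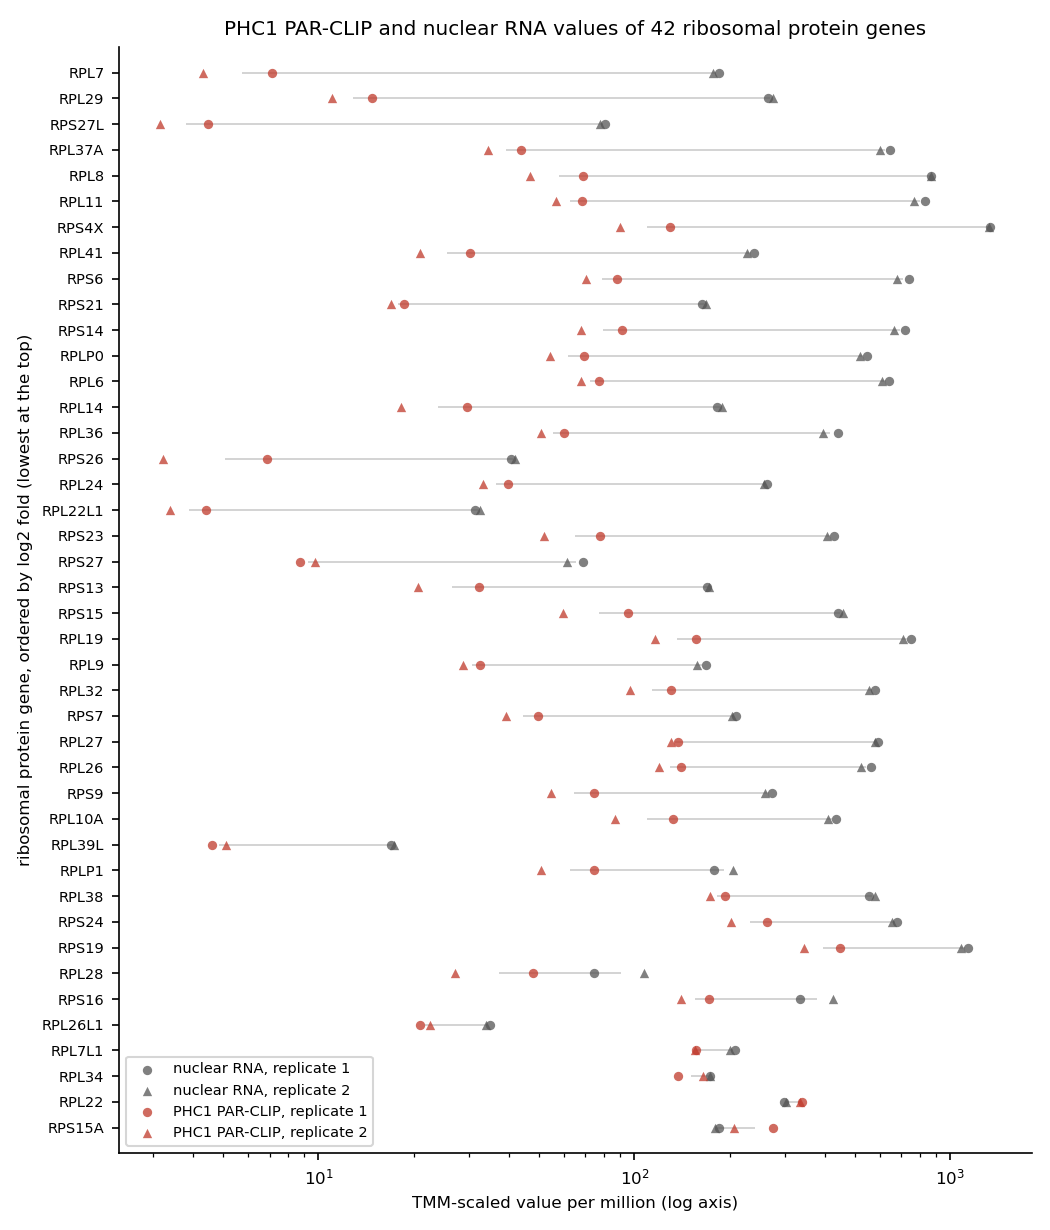
Values in CPM (log axis) of 42 ribosomal protein genes in 2 nuclear RNA libraries (grey) and 2 PHC1 PAR-CLIP libraries (red), with circles for replicate 1 and triangles for replicate 2, and a line joining the means. Genes are ordered by log2 fold from RPL7 at the top (-4.79) to RPS15A at the bottom (0.38), and PHC1 lies to the left of RNA except in RPL22 and RPS15A.

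Paralogues were set beside their canonical partners. RPL7 and RPL7L1 stood at -4.79 and -0.38, and RPL22 and RPL22L1 at 0.17 and -2.75. RPS27L stood at -4.07 and RPS27 at -2.69, and RPL26 at -2.05 and RPL26L1 at -0.64. The paralogue was thus the higher of the pair for RPL7L1 and RPL26L1 and the lower for RPL22L1 and RPS27L. RPL39L, whose partner RPL39 was not analysed here, stood at -1.64.

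By role, RPL11, which with RPL5 and RPL23 binds the p53 regulator MDM2, had 829 and 769 CPM in RNA and 68.2 and 56.6 in PHC1, a log2 fold of -3.66. RPS6, the substrate of S6 kinase, had 739 and 680 against 87.8 and 70.2, a fold of -3.16. RPLP0 and RPLP1, proteins of the stalk that recruits elongation factors, differed from each other at -3.09 and -1.63. RPS19, the gene most often mutated in Diamond-Blackfan anaemia, had the highest PHC1 values of all, 448 and 345 CPM, and with 1140 and 1080 in RNA a fold of -1.49. All 5 were lower than RNA, with adjusted p from 0.000137 to 0.00318.

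The fold went with the length of the gene region. Across the 43 genes Spearman's rho was 0.64 between length and log2 fold, against 0.30 in the 566 comparison genes and 0.31 in all 9362 genes tested. These are descriptions across genes that share their libraries, and a part of length in them was not tested further. The median fold was -2.90 in 13 genes of up to 3 kb, -2.81 in 17 of 3 to 6 kb, -1.46 in 8 of 6 to 10 kb and -1.49 in 5 longer ones. In the comparison genes it was -2.83, -2.19 and -1.57 in the first 3 classes, so the ribosomal protein genes stood farthest under them between 3 and 6 kb. The 4 genes nearest to or above 0 were 7.38 (RPS15A), 14.6 (RPL22), 9.92 (RPL34) and 8.0 kb (RPL7L1) long. With RNAPII 4SU PAR-CLIP in place of PHC1 rho was 0.08 across the 43 genes. Their 4SU medians were -1.62, -1.40 and -1.75 in the first 3 classes. In the comparison genes the 4SU medians also rose with length, at -1.82, -1.25 and -0.97.

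**Figure D2:**
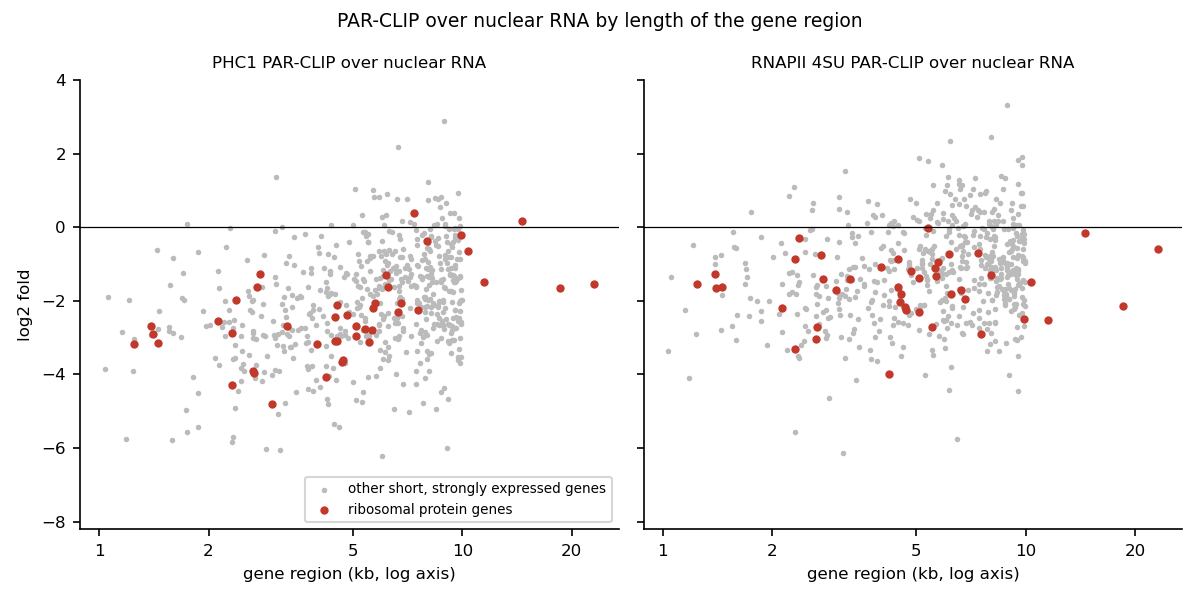
Log2 fold over nuclear RNA against length of the gene region (kb, log axis) for PHC1 PAR-CLIP (left) and the RNAPII 4SU library (right), with ribosomal protein genes in red and 566 other short, strongly expressed genes in grey. On the left the red points rise with length (rho 0.64) and on the right they show little slope (rho 0.08).

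RNAPII PAR-CLIP was the study's control for RNA crosslinked to another protein. With the 4SU and 6SG libraries as a pair no gene passed (0% of 8744 called in either direction, limma), and no ribosomal protein gene among 43 did. At an unadjusted p under 0.05, 18 of them were lower and 0 higher, beside 12.4% and 11.4% of all genes tested. All 43 folds were below 0, as were 63.5% of all genes tested, with a median of -2.44 against -1.63 in the comparison genes and -0.68 in all genes tested. The lowest were RPL8 (-6.43), RPL37A (-6.02), RPL11 (-5.93), RPL29 (-5.71) and RPS6 (-5.29). All 5 were listed at 0 with 6SG, and their folds depend on the pseudocount. The highest were RPL36 (-0.17), RPS26 (-0.43), RPL10A and RPL14 (both -0.45) and RPS15 (-0.61).

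Each RNAPII library was also set against RNA alone, with the single library assumed to vary like the RNA pair. Values are rescaled in each comparison, so those of a library differ slightly between them. With 4SU, 40 of 43 ribosomal protein genes were lower and 0 higher, where 51.0% of all genes were lower and 40.5% higher. The median fold was -1.62 (-1.17 in the comparison genes, -0.18 in all genes). The 4SU value lay under both RNA values in 42 of the 43, which held for 53.0% of all genes tested, and RPL22L1 was the exception. With 6SG, 40 were lower and 3 higher, where 67.2% and 28.5% of all genes were. The 6SG value lay under both RNA values in 39 of the 43 (64.4% of all genes tested) and over both in 3 (34.5%). Of the 44, 13 were listed at 0 with 6SG, as were 165 of the 566 comparison genes and 7883 of all 14432 genes.

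Single genes show the spread of the 4SU library. RPS27L was the lowest with 4.27 CPM in 4SU against 82.9 and 80.4 in RNA, a log2 fold of -3.97. RPL29 had 27.3 against 272 and 284 (-3.30), and RPL8 107 against 889 and 897 (-3.05). RPL22L1 had 32.5 against 32.2 and 33.5, a fold of -0.01 (adjusted p 0.899), the nearest to RNA. RPL28 (-0.74, adjusted p 0.325) and RPS16 (-1.40, adjusted p 0.105) did not pass either. Their RNA replicates lay apart, at 76.3 and 111 CPM for RPL28 and 343 and 440 for RPS16. RPL22L1 thus had -0.01 with RNAPII 4SU and -2.75 with PHC1, while RPL34 had -2.49 and -0.20.

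Against the RNAPII pair, PHC1 PAR-CLIP gave no call among 40 ribosomal protein genes tested or in all 8435 genes (0% in either direction, limma). At an unadjusted p under 0.05, 2 were higher and 6 lower, beside 14.2% and 7.69% of all genes tested. The median log2 fold was 0.76 over the 40, -0.17 in the comparison genes and 0.59 in all genes tested. Of the 40, 9 were listed at 0 with 6SG, as were 25.9% of all genes tested: RPL8, RPL11, RPL26, RPL28, RPL29, RPL37A, RPLP1, RPS6 and RPS21. Their folds rest on the pseudocount and are above 0 over the pair and below 0 over 4SU alone. Without them the median of the other genes was -0.07. The lowest were RPL36 (-2.57), RPL14 (-2.34), RPS26 (-2.28), RPL7 (-1.99) and RPS15 (-1.78) and the highest RPL26 (3.01), RPLP1 (2.59), RPL8 (2.54), RPS15A (2.52) and RPL34 (2.39). Of these, RPL26, RPLP1 and RPL8 are among the 9 and had -0.95, -0.72 and -0.71 over 4SU alone. Folds were below 0 in 16, where 36.3% of all genes tested were: those 5 lowest, RPS4X, RPL41, RPLP0, RPL6, RPL24, RPS27, RPL9, RPL27, RPS9, RPL10A and RPS24.

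Set against the 4SU library alone, which shares its nucleoside with PHC1, 23 of the 40 were lower and 7 higher, where 28.0% of all genes tested were lower and 33.7% higher. Here too the single library is assumed to vary like the 2 PHC1 libraries, from which all the spread is taken, so these calls and p-values have no replicate check on the RNAPII side. The median log2 fold was -0.82 (-0.69 in the comparison genes, 0.04 in all genes). Both PHC1 values lay under the 4SU value in 27 of the 40 and over it in 9, beside 45.4% and 46.4% of all genes. RNAPII 4SU clusters covered 39.9 kb of these genes, near the 41.3 and 35.2 kb of PHC1, but at a mean depth of 77.4 against 37.9 and 35.1. Set against 6SG alone, 24 were higher, among them the 9 listed at 0, and 11 lower, where 54.6% and 23.3% of all genes were, so among these genes most calls were lower over the 4SU library and most were higher over the 6SG library. The nucleoside and the depth of the library cannot be told apart here.

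RPL7 was again the lowest, with 6.84 and 4.16 CPM in PHC1 and 47.5 in RNAPII 4SU, a log2 fold of -2.92 ± 0.49 (SE, limma adjusted p 2.5e-06). Its clusters covered 174 and 119 bases with PHC1 and 850 with RNAPII, at a mean depth of 15.4, 13.3 and 36.0. RPS6 had 84.4 and 67.6 against 291 (-1.93), RPS26 6.62 and 3.1 against 19.2 (-1.85), RPL24 38.3 and 31.9 against 103 (-1.54) and RPL10A 127 and 83.6 against 296 (-1.52). In each of these 5 genes the 4SU value lay above both PHC1 values.

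Among the 7 higher genes were RPL34 (2.43), RPS15A (1.23), RPS19 (1.17), RPL7L1 (1.08), RPL26L1 (0.98) and RPL22 (0.49). RPL34 had 131 and 159 CPM in PHC1 and 25.9 in RNAPII 4SU (adjusted p 5.39e-11). Its PHC1 clusters covered 1412 and 1347 bases against 644, at a mean depth of 36.4 and 44.7 against 25.8, so both extent and depth were higher. RPS15A had 264 and 198 against 96.6 (adjusted p 5.06e-06), and its depth was nearly equal (57.8 and 53.4 against 59.1) over 1785 and 1411 bases against 1050. RPS19 had 431 and 332 against 167 (adjusted p 2.79e-06).

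**Figure D3:**
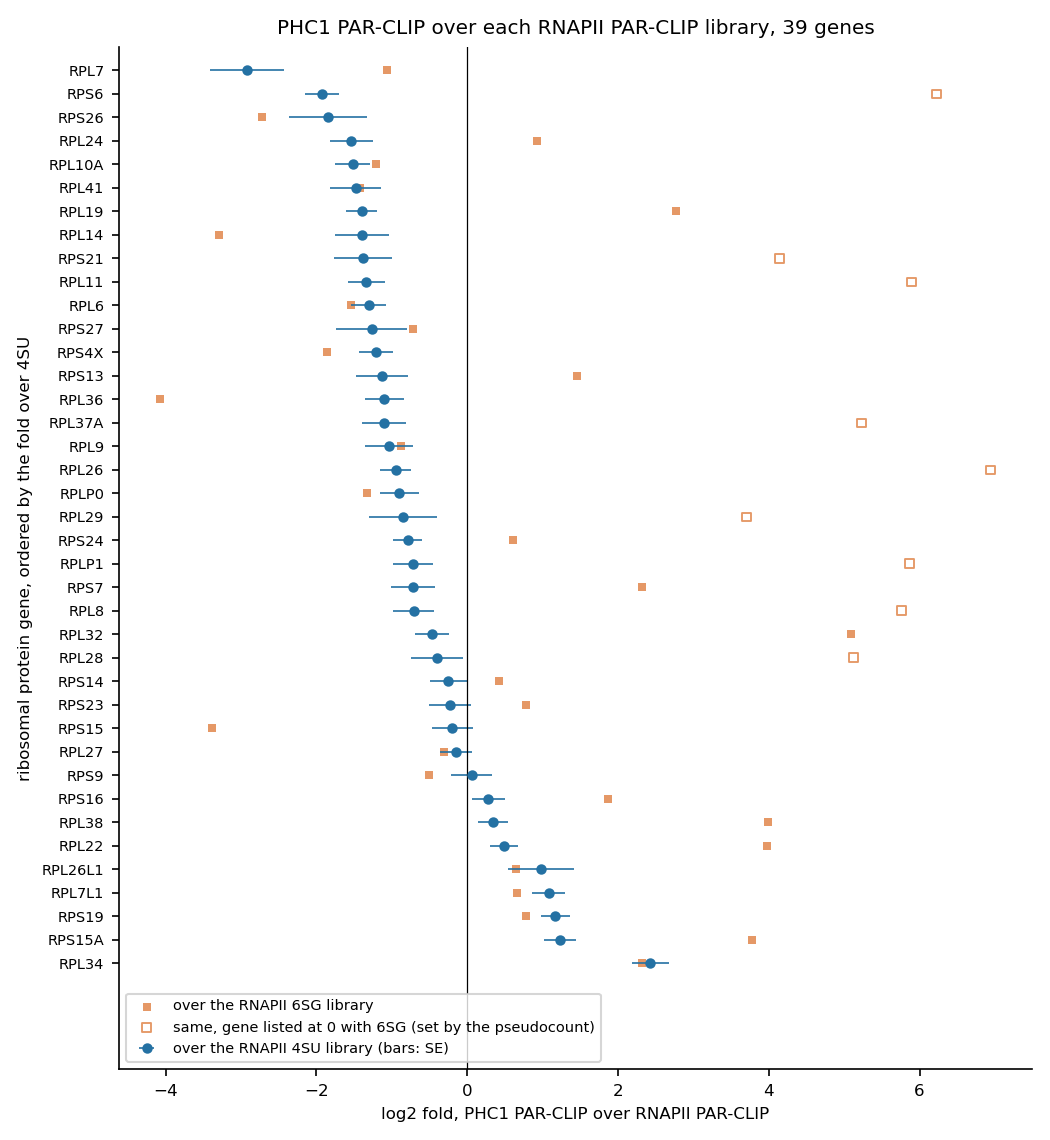
Log2 fold of PHC1 PAR-CLIP over the RNAPII 4SU library (blue, with SE) and over the RNAPII 6SG library (orange squares, open where the gene is listed at 0 with 6SG and the pseudocount sets the value) for 39 ribosomal protein genes, ordered by the first. Over 4SU the genes run from -2.92 (RPL7) to 2.43 (RPL34), and over 6SG the filled squares run from -4.07 (RPL36) to 5.09 (RPL32).

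Within the genes, PHC1 and RNAPII clusters often lay in the same places. Of the 724 clusters of PHC1 replicate 1, 73.2% overlapped one of replicate 2 by at least a base, against 67.2% over all genes, and 60.9% overlapped an RNAPII 4SU cluster, against 30.7%. For replicate 2 the overlap with 4SU was 60.6%, against 29.3%, and 55.1% and 48.1% of the 1081 clusters of 4SU overlapped the PHC1 replicates. Overlap can grow with the part of a gene that clusters cover, which had a median of 17.7%, 16.1% and 19.1% in the PHC1 replicates and 4SU and of 9.0%, 7.52% and 11.5% in the comparison genes. Clusters lay on the strand of the gene: in the 38 genes with a RefSeq strand the strand with most coverage was the gene's own in all 3 libraries.

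Single clusters held much of a gene's coverage. The deepest cluster is here the one with the most summed coverage, so a long cluster can be chosen over one of higher mean depth. It held a median of 32.2% and 26.2% in the PHC1 replicates and 29.8% in 4SU. It overlapped between the PHC1 replicates in 28 of 43 genes, and overlapped the deepest 4SU cluster in 18 and 12. RPS24, RPL38 and RPL22L1 are described here for clusters chosen after their values were seen. In RPS24, a small-subunit gene with alternative 3′ exons, the deepest cluster of these 3 libraries began at chr10:79796944 and chr10:79796934 with PHC1 and chr10:79796934 with 4SU (hg19). It was read to a mean depth of 280, 155 and 1850. In RPL38, a gene with a role in translation of Hox mRNAs, 1 cluster of 116 bases held 80.1% of the 4SU coverage, while the deepest PHC1 clusters, 138 and 51 bases long, held 22.8% and 13.9%. RPL22L1 had 2 clusters and 1 cluster in the PHC1 replicates, of which the deepest held 81.7% and 100%, and 10 clusters with 4SU.

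The libraries differed near the start of the gene. The first 20% of the region held a mean of 18.7% and 16.3% of a gene's coverage in the PHC1 replicates and 27.1% in RNAPII 4SU (38 genes with a strand). In the comparison genes the same shares were 15.5%, 15.2% and 23.2%. The first 10% alone held 5.78% and 5.56% with PHC1 and 13.0% with 4SU. The last 20% held 28.1%, 28.2% and 27.8%, and in the comparison genes 27.9%, 29.0% and 21.8%. The first and last 20% thus held nearly equal shares with RNAPII 4SU, and the last 20% held more with PHC1. The difference between the libraries was not tested.

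**Figure D4:**
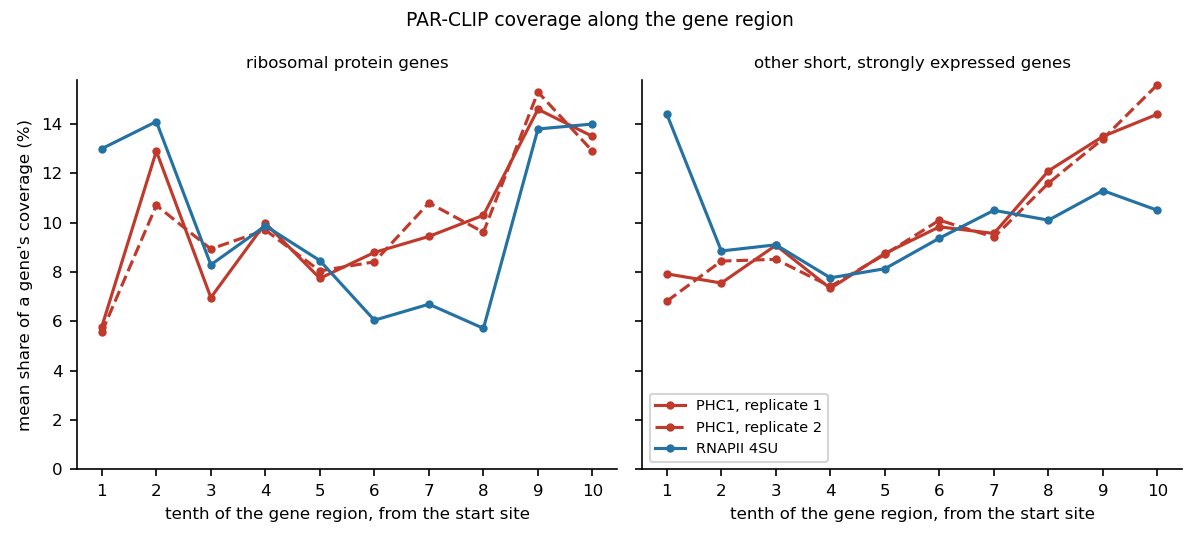
Mean share of a gene's PAR-CLIP coverage (percent) in each of 10 equal parts of its region, from the start site, for 38 ribosomal protein genes (left) and other short, strongly expressed genes (right), with both PHC1 replicates in red and RNAPII 4SU in blue. In the first of the 10 parts of the ribosomal protein genes 4SU stands at 13.0% and PHC1 at 5.78% and 5.56%.

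At the start sites, ribosomal protein genes carried RNAPII and H3K4me3, the mark of active promoters. RNAPII was at least 2-fold over input in 43 of 44 and H3K4me3 in 43 of 44, where 43.8% and 61.9% of all genes were. RPL3L was the exception for both. Of the comparison genes 87.1% and 98.6% were 2-fold over input, so other short, strongly expressed genes mostly shared this state. The median was 26.4 RNAPII reads per 10 M (22.1 in the comparison genes, 10.4 in all genes) and 71.3 for H3K4me3 (63.8 and 34.0), beside 6.07 for input. Each target had 1 library or 1 joined column, so no test was made, and exact Poisson intervals (95%) cover counting error only.

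RPS16 had the most of both, 64.5 RNAPII reads per 10 M (95% interval 56.1 to 73.9) and 141 of H3K4me3 (130 to 153), with 9.55 of input. RPL7L1 (48.2) and RPLP1 (45.8) followed for RNAPII, and RPL22 (122) and RPLP1 (120) for H3K4me3. The lowest in RNAPII were RPL3L (4.3), RPL34 (12.3) and RPS13 (16.3), and in H3K4me3 RPL3L (6.75), RPL39L (45.6) and RPS19 (51.2). RPL39L and RPL26L1, low in nuclear RNA, had 22.1 and 25.8 RNAPII reads, near the median of the whole group. Leaving out RPL3L, Spearman's rho between RNAPII at the start site and RNA CPM per kb was 0.40 over 43 genes, against 0.74 over all 14432 genes, as a description.

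The marks of Polycomb were at or under input. EZH2, the methyltransferase of Polycomb repressive complex 2, and its product H3K27me3 were 2-fold over input in 0 of 44, beside 0.825% and 1.04% of all genes. H3K27me3 was under input in 39 of 44, where 76.4% of all genes and 92.9% of the comparison genes were. In 6 of the 44 the interval lay wholly under that of input, as it did in 3.94% of all genes. RPS16 (7.2), RPL24 (6.04) and RPL32 (5.8) had the most H3K27me3 reads per 10 M and RPL11, RPL34, RPL39L and RPS27L the fewest (2.32 each). At RPL11 that was 10 reads against 30 of input. EZH2 was under input in 27 of 44 (50.3% of all genes and 63.6% of the comparison genes). It ran from 3.2 (RPL37A), 3.49 (RPL29) and 3.78 (RPL7, RPL19, RPS14 and RPS21) to 7.57 (RPS16 and RPS27L), 7.86 (RPL27) and 9.6 (RPS4X), where input was also highest at 12.9.

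PHC1 itself was near input at these start sites. In the authors' joined values 0 of 44 were 2-fold over input (0.125% of all genes), with a median of 6.69 reads per 10 M against 6.07 of input. PHC1 was under input in 16 of 44 (48.4% of all genes and 49.5% of the comparison genes). The median log2 over input was 0.13, against 0.01 in the comparison genes and in all genes. By reads per 10 M, 16 of 44 lay in the top 10 percent of the table for PHC1 and 9 for input. RPS16 (14.0), RPL32 (10.2) and RPL10A (9.76) had the most and RPL24 (5.15), RPS7 (4.99) and RPS13 (4.88) the fewest. The joined columns carry no replicate spread, so the error of these values is not known.

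PHC1-dFCS gave 1 of 44 at 2-fold (RPS7, 1.12% of all genes), with a median of 7.61. At RPS7 input was at its lowest, 11 reads. RPS16 (12.4), RPS15 (11.7) and RPL32 (11.4) had the most, and RPL11 (6.19), RPL34 (6.02) and RPL22L1 (5.48) the fewest. PHC1-dFCS lay above PHC1 in 37 of 44, where it did in 79.4% of all genes, by a median log2 difference of 0.15 against 0.22 in all genes. None of the 44 differed 2-fold (0.173% of all genes did). RPS7 (0.84) and RPS14 (0.78) stood highest and RPL11 (-0.41) lowest.

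**Figure D5:**
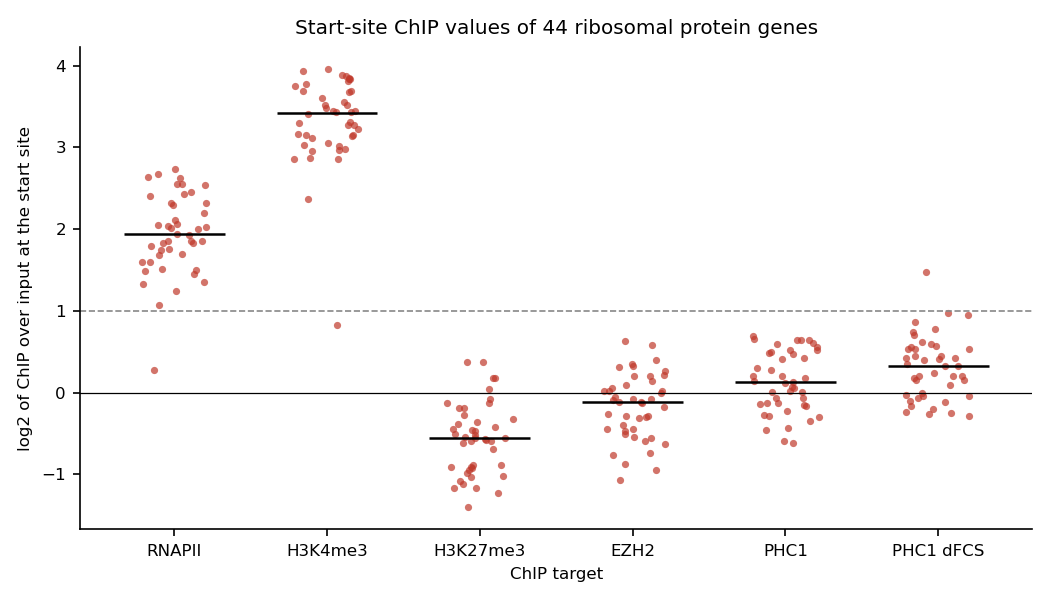
Log2 of ChIP over input at the start sites of 44 ribosomal protein genes (1 point each) for 6 targets, with a bar at the median, a solid line at input and a dashed line at 2-fold. RNAPII and H3K4me3 lie above the dashed line except for RPL3L, and H3K27me3 lies mostly under input, with RPL11 lowest at -1.40.

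Other genes of the pathway were set beside them from lists made with earlier results of these data known. Of 35 translation factors and other TOP mRNAs 21 had a row. In PHC1 PAR-CLIP against RNA 10 (47.6%) were lower and 5 (23.8%) higher, beside 47.1% and 35.5% of all genes tested. Their median log2 fold was -0.12. EEF1A1, which brings aminoacyl-tRNA to the ribosome, was lowest at -4.75, followed by BTF3 (-2.96), EIF3F (-2.88) and EEF1G (-1.95). EIF4E was highest at 1.2. Of 45 ribosome biogenesis factors 29 had a row, and 19 (65.5%) were lower and 4 (13.8%) higher, with a median of -0.63. RRS1 (-4.56), AAMP (-3.57), RRP9 (-3.27) and SBDS (-2.85) lay farthest from 0, and UTP4 (2.38) was highest. Of 27 other snoRNA host genes 2 had a row, SNHG10 (-4.37) and HSPA8 (-4.20), and both were lower. The regions of the first 2 lists had a median of 18.4 and 16.6 kb, against 4.76 kb in the ribosomal protein genes.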

How the data were processed

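Gene values came from nuclear RNA read counts, which the authors deposited per gene after alignment with TopHat2 2.0.11, per the submitters' processing notes. PAR-CLIP reads were aligned to hg19 with Bowtie 0.12.7 and SAMtools 0.1.19, per the same notes, and the authors deposited clusters with their mean coverage per base, a signal that was summed here over each gene region. ChIP reads were aligned with Bowtie2 2.2.3, and the authors deposited a score per start site. The score equals reads per 10 M minus input reads per 10 M, with both PHC1 and both PHC1-dFCS libraries joined. It was turned back into reads here. The deposited input value was 0 for every gene, so library sizes and input reads were inferred from the spacing of the scores. All ratios and intervals at start sites rest on that inference. Cluster caller, RNA counting, start-site window, duplicates and the placement of reads that match several places are not given in the sources used here. For nuclear RNA, 1 value column was not used.

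Values were scaled with TMM (edgeR 4.0.16, R 4.3.3) and tested as log2(CPM + 1) with limma 3.58.1 (trend, robust), 2-sided, with Benjamini-Hochberg adjustment over all genes with at least 5 CPM in at least 2 libraries and a threshold of 0.05. Folds are on that scale and understate the change of low genes. Counting start-site reads with edgeR had been planned, but the joined scores allowed only ratios (pseudocount 1 read per 10 M). Scripts were tested on simulated data. Named genes are the 5 lowest and 5 highest folds of each comparison, every member against the direction of most, members fixed by role, paralogue pair or snoRNA host, the 3 lowest and 3 highest of each level and promoter column, and 2 to 4 of the largest folds of each other list. The highest fold of the translation factor and of the biogenesis list is also named. Members and lists were chosen with earlier results of these data known. Alternatives were other scalings, filters, cluster measures and size limits, single RNAPII libraries, each replicate left out and the replicate number as a block. Of the genes tested, 1 is counted but not reported here by name.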

Additional observations from a re-analysis of the deposited data

Results flagged for a closer look

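In 3 ribosomal protein genes the RNAPII libraries lay on opposite sides of nuclear RNA, with 4SU below both RNA values and 6SG above both. Of all genes tested, 53.0% had 4SU under both RNA values and 34.5% had 6SG over both. The share with both together was not counted, so the 3 genes are not shown to be unusual. The difference between the libraries was not tested, since each nucleoside had 1 library. RPL36 had 137 CPM with 4SU, 1070 with 6SG and 453 and 408 in RNA, log2 folds of -1.64 and 1.15. A single cluster held 98.8% of its 6SG coverage. RPS15 had 99.4, 918 and 452 and 472, folds of -2.20 and 0.82. RPL14 had 72.5, 271 and 188 and 197, folds of -1.39 and 0.33, and 85.2% of its 6SG coverage lay in 1 cluster. These genes had 2, 5 and 2 clusters with 6SG against 20, 12 and 14 with 4SU.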

How the results depend on the processing

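Ribosomal protein genes lower with PHC1 than in nuclear RNA numbered 35 to 43 over the alternatives, beside 34.1% to 59.7% of all genes. The number higher was 0 with library totals, size factors or cluster numbers, beside 27.6%, 34.8% and 29.6% of all genes. RPL22 had -0.19 with library totals and -1.45 with cluster numbers, and RPS15A -1.79 with cluster numbers. With a replicate left out, the highest fold ran from 0.17 to 0.61. Library totals moved the median of all genes from -0.33 to -0.72. With the replicate number as a block, 40 were lower and 1 was higher (RPS15A, not RPL22), beside 47.2% and 34.8% of all genes. Same-numbered libraries did not deviate together (r = 0.036 over 9362 genes). The assays differ and each had few libraries, so this value cannot tell whether the numbers mark shared cultures.

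For RNAPII against RNA the number lower was 8 without the filter (9.15% of all genes), 2 without each gene's deepest cluster (2.73%), 9 with cluster numbers (0.982%), 1 without either RNA replicate (0.0249%) and 40 with either RNAPII library alone (51.0% and 67.2%). The number higher was 3 with 6SG alone, beside 28.5% (RPS15 0.82, RPL14 0.33, RPL36 1.15).

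For PHC1 against RNAPII, 23 were lower and 7 higher over 4SU alone, and 11 and 24 over 6SG alone. Of the 40 folds, 16 changed sign over 4SU alone, 15 of them to below 0, and 9 of the 16 are listed at 0 with 6SG. Those named by the rule were RPL8 -0.71, RPLP1 -0.72, RPL26 -0.95, RPL11 -1.34, RPS6 -1.93, RPS13 -1.13 and RPL32 -0.47. With cluster numbers the named folds that changed sign were RPS19 -0.52, RPL7L1 -0.17 and RPS13 -0.07, without the deepest cluster RPS27 0.93, and with library totals RPS13 -0.06. Without a PHC1 replicate RPS13 ran from -0.13 to 0.47.

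At start sites, 1.5-fold over input gave 1 gene for EZH2, 7 for PHC1 and 9 for PHC1-dFCS, beside 7.43%, 4.31% and 14.4% of all genes. PHC1-dFCS had 0 at 3-fold and 0 with a pseudocount of 10, an alternative chosen after seeing the data. Deposited scores above 0 numbered 5 for H3K27me3, 17 for EZH2, 28 for PHC1 and 32 for PHC1-dFCS, beside 23.6%, 49.7%, 51.6% and 75.7%. Comparison genes of at most 5 kb were lower in 91.7% and those of at most 20 kb in 73.1%. The cause of these changes was not tested.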
